A study of Mus musculus with 16 samples.

Results

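Of the 24421 genes counted in mouse striatum, 9 genes are described here that had less RNA in mice given a virus for overexpression of the transcription factor Foxp2: Dnttip1, Parn, Map2k5, Mtmr14, Hook2, Vars2, Evl, Sidt2 and Inf2. They were selected on their lower level with the Foxp2 virus in one or both genotypes, so that their differences between the viruses are a description and carry no test. The selection names no numeric threshold. All 9 had enough reads to be among the 13563 genes tested. They form a set with no shared family, put together as genes that do not encode ion channels. With the analysis used here 26 genes were called lower in at least 1 genotype, and the 9 are all among them. The 17 others included Ano3, Anxa6, Cacna2d3, Chat, Col4a1, Col4a2, Dgki, Dgkz, Gtf2i, Lamp5, Ncaph2, Parp6, Pde2a, Ppp1r12c, Tomm6 and Tpcn1, several of which encode no channel either.

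Striatal RNA came from 16 mice harvested at 13 months of age, with 4 mice in each of 4 groups. Con+Con mice had the control genotype and received the control virus, and Con+Foxp2 mice had the control genotype and received the Foxp2 virus. BACHD+Con and BACHD+Foxp2 mice had the BACHD genotype, in which a bacterial artificial chromosome supplies mutant human huntingtin as a model of Huntington disease, and received the control or the Foxp2 virus. All 4 groups were injected with a virus, and an uninjected group was not analysed here. The virus type, its promoter, the cells it reaches, the species of the delivered Foxp2 and the time from injection to harvest were not stated in the labels or protocols.

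The proteins of the 9 genes work in different parts of the cell. Dnttip1 is a scaffold subunit of MiDAC, a histone deacetylase complex, and Parn is a ribonuclease that shortens poly(A) tails and trims small non-coding RNAs. Map2k5 (MEK5) is the kinase that activates ERK5, and Mtmr14 is a phosphatase of the myotubularin family that removes a phosphate from membrane phosphoinositides. Hook2 links cargo to the dynein motor on microtubules, Sidt2 is a lysosomal membrane protein that takes part in RNA uptake into lysosomes, and Vars2 charges the valine tRNA of mitochondria. Evl, an Ena/VASP protein, and Inf2, a formin, both promote the growth of actin filaments, and Inf2 also acts where the endoplasmic reticulum contacts dividing mitochondria. Foxp2 is a forkhead protein expressed in striatal projection neurons, known mainly as a repressor of transcription, and forkhead proteins bind DNA at variants of the core TGTTTAC.

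The sequences before the gene starts are shown for 4 of the genes because 3 of them, Mtmr14, Vars2 and Sidt2, held TGTTTAC on either strand, while Dnttip1, with the largest mean difference between the viruses over both genotypes, did not. The 250 bases before the RefSeq transcript start (GRCm38.p6, which has the coordinates of mm10) are written 5′ to 3′ on the gene's strand, with TGTTTAC or its reverse complement GTAAACA in capitals. The windows are chr6:113237593-113237842 (plus strand) for Mtmr14, chr17:35667593-35667842 (minus strand) for Vars2, chr9:45955250-45955499 (minus strand) for Sidt2 and chr2:164745765-164746014 (plus strand) for Dnttip1.
Mtmr14: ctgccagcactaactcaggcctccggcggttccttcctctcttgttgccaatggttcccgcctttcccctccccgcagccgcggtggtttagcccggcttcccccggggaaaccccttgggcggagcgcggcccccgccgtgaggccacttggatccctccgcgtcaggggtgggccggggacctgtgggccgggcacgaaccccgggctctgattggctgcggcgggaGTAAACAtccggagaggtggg
Vars2: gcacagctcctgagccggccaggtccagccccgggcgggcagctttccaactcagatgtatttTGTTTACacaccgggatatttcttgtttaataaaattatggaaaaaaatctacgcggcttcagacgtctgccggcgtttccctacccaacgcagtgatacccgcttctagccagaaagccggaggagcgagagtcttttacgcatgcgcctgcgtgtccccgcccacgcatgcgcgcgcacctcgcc
Sidt2: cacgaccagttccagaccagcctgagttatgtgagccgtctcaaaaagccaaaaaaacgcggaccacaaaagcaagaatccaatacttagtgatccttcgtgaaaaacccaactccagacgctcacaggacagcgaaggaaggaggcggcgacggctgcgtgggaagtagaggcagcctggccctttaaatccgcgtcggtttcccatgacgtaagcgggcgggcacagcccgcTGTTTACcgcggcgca
Dnttip1: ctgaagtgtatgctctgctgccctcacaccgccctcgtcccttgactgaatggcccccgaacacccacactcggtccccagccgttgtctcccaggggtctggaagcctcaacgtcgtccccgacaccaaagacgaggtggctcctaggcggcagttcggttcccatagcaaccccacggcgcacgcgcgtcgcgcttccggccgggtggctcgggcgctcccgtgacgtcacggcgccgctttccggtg

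The motif lay 21 to 15 bases before the start of Mtmr14 on the opposite strand, 187 to 181 bases before that of Vars2 on the gene's strand and 16 to 10 bases before that of Sidt2 on the gene's strand. The gene Gtf2h4, on the same strand as Vars2, comes within 138 bases of it, so the Vars2 match lies inside Gtf2h4. All 9 genes matched the RefSeq promoter table, with 11 windows in all since Evl and Inf2 each have 2 starts. TGTTTAC was thus present in 3 of 9 genes, against 2.58% of the 10256 tested genes with a window and 3.17% of all 32851 windows, searched on both strands. Among the 17 other genes called lower, 14 had a window and 0 held it. The related core TGTTTAT was in 0 of the 9 genes and in 2.75% of tested genes. CAAATT, a core reported for Foxp2, was in 2 of the 9 genes, Parn and the second window of Evl, and in 8.24% of tested genes. It was also in 2 of the 14 other genes called lower that had a window. These matches describe letters in short windows and do not show binding, which was not measured. The windows of the 9 genes had a median GC content of 60.4% (49.2% to 71.6%), and those of tested genes a median of 60.0%.

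By gene model (GENCODE M21, GRCm38) the 9 genes lay on 7 chromosomes, with Map2k5 and Sidt2 both on chromosome 9 and Evl and Inf2 both on chromosome 12. Dnttip1 spans chromosome 2 from 164745983 to 164768607, Parn chromosome 16 from 13537960 to 13668170, and Map2k5 chromosome 9 from 63163768 to 63377902. Mtmr14 spans chromosome 6 from 113237843 to 113281392, Hook2 chromosome 8 from 84990603 to 85003349, and Vars2 chromosome 17 from 35655634 to 35667592. Evl runs on chromosome 12 from 108554720 to 108688516 and Inf2 from 112588784 to 112615557, while Sidt2 runs on chromosome 9 from 45937857 to 45955258. The 9 had many exons, with a median of 23 after merging those that overlap (15 to 28), where the median over tested genes was 10. Their median exonic length was 3980 bases against 4660, and the GC content of their longest transcripts was 54.9% against 49.7%. The 17 other genes called lower were similar in exon number and GC content, with a median of 28 exons and a transcript GC content of 54.3%. They were longer, with a median exonic length of 6240 bases. The labels and notes do not state if counting took strand into account. Reads from antisense genes that share 10.7% of the exonic bases of Dnttip1 (Gm11457), 8.52% of those of Vars2 (Gm20483) and 10.4% of those of Sidt2 (A830035O19Rik) therefore cannot be separated from theirs, nor those of Degs2, which shares 9.46% of the exonic bases of Evl on the opposite strand.

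Libraries had between 2660395 and 3669748 gene reads, and levels are given as CPM, read counts scaled for library size, with mean ± SD over 4 mice. Foxp2 itself was at 87.3 to 153 CPM in the 8 control-virus libraries, at 3500 to 4390 CPM in Con+Foxp2 and at 1290 to 1930 CPM in BACHD+Foxp2, so the virus labels held in every mouse and the 2 genotypes carried different Foxp2 levels (2.52-fold lower in BACHD+Foxp2, edgeR quasi-likelihood test, adjusted p = 9.64e-05). The markers of striatal projection neurons were present in all 16 libraries, but their summed level ranged from 3960 to 7830 CPM in Con+Con alone. Cortical neuron markers ranged from 684 to 2340 CPM and choroid plexus and ependymal markers from 115 to 10600 CPM over the 16 libraries, and both ranges overlapped between all groups. The 3 libraries lowest in cortical markers were Con+Foxp2 mouse 2, BACHD+Con mouse 2 and BACHD+Con mouse 3. In bulk striatum, fewer cells of a type and less RNA per cell cannot be told apart.

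Per kilobase of exon, Inf2 was the most abundant of the 9 in Con+Con at 138 CPM per kilobase, followed by Evl at 52.1. Dnttip1 (24.1), Map2k5 (22.8), Sidt2 (17.4), Parn (15.2) and Mtmr14 (11.4) were intermediate on this scale, and Hook2 (6.81) and Vars2 (5.84) were lowest. Every library had reads of all 9 genes, the fewest being 25 reads of Hook2 in a BACHD+Foxp2 library.

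**Figure D1:**
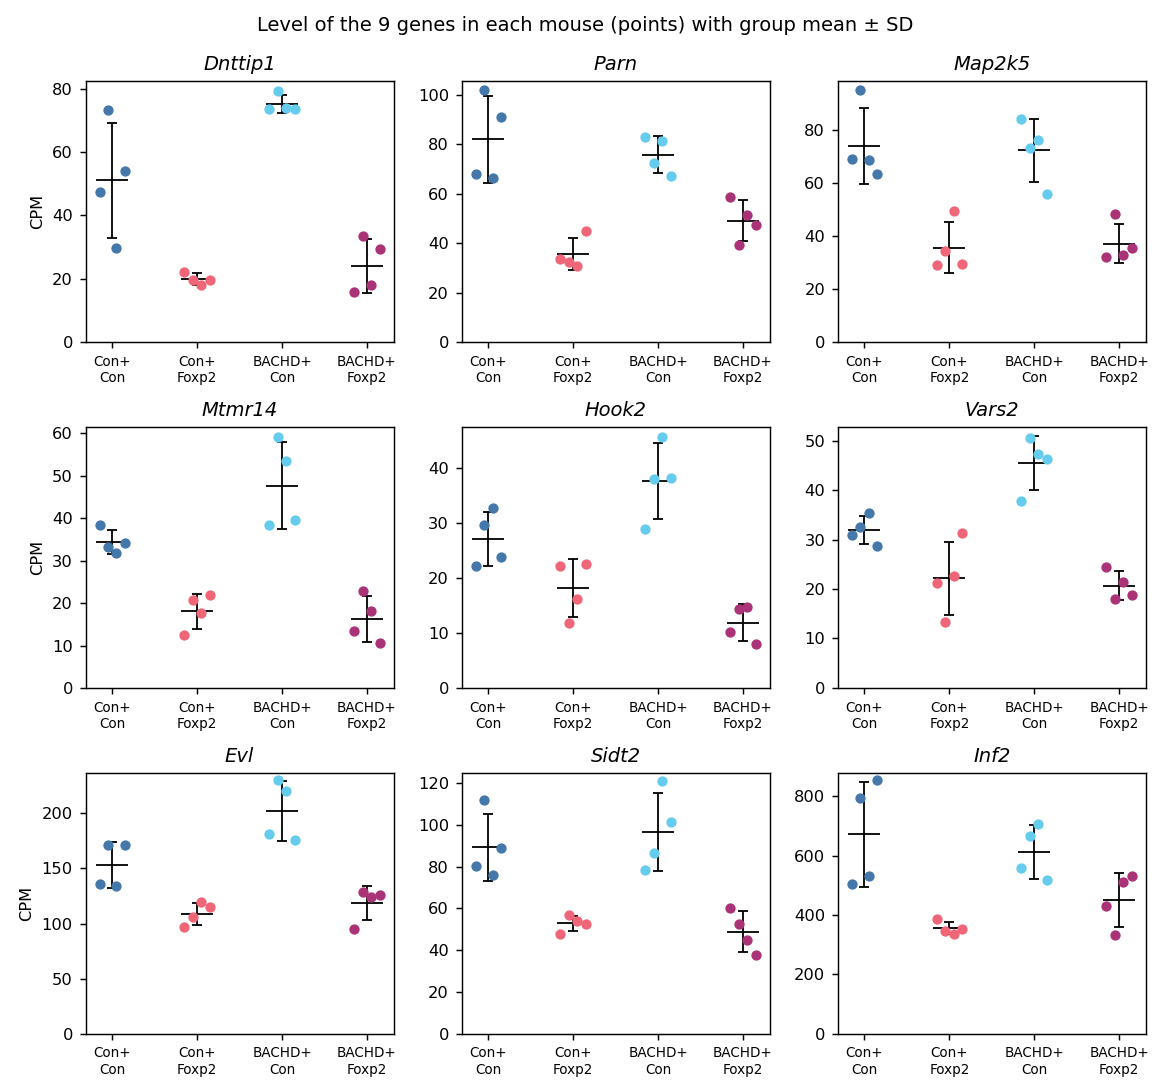
CPM of each of the 9 genes in each mouse (points), with the group mean and SD (lines), by genotype (Con or BACHD) and virus (Con or Foxp2); each panel has its own linear axis from 0. Points of the Foxp2-virus groups lie below those of the control-virus groups of the same genotype except where Hook2 and Vars2 overlap in control mice and Inf2 overlaps in BACHD mice.

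Dnttip1, the MiDAC scaffold, was lower with the Foxp2 virus in both genotypes. In control mice 1 to 4 it was at 47.5, 73.4, 29.6 and 53.9 CPM under the control virus and at 22.2, 19.6, 17.9 and 19.7 CPM under the Foxp2 virus. In BACHD mice it was at 73.5, 79.3, 73.9 and 73.6 CPM and at 15.7, 33.4, 17.9 and 29.3 CPM. The groups did not overlap in either genotype, and the spread was widest in Con+Con, where mouse 3 was under the highest BACHD+Foxp2 mouse, and narrow in Con+Foxp2 and BACHD+Con. The mean was 2.57-fold lower in control mice (log2 fold change -1.36, SE 0.24) and 3.10-fold lower in BACHD mice (-1.63, SE 0.24).

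Parn, the poly(A) ribonuclease, showed the larger difference in control mice. Its level there was 68.2, 102, 66.5 and 91.1 CPM under the control virus and 33.8, 32.4, 30.8 and 45 CPM under the Foxp2 virus. For BACHD mice the values were 82.8, 72.3, 81.3 and 67.1 CPM and 58.9, 39.3, 51.3 and 47.2 CPM. No Foxp2-virus mouse reached a control-virus mouse of its genotype, although in BACHD the gap was 58.9 against 67.1 CPM. Parn was 2.30-fold lower in control mice (log2 fold change -1.20, SE 0.18) and 1.55-fold lower in BACHD mice (-0.63, SE 0.18).

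Map2k5, the kinase upstream of ERK5, was lower by nearly the same amount in both genotypes. Control mice had 69.0, 94.9, 68.5 and 63.2 CPM with the control virus and 29, 34.4, 49.4 and 29.5 CPM with the Foxp2 virus. BACHD mice had 84.2, 73.0, 76.2 and 55.9 CPM and 32.2, 48.1, 32.7 and 35.4 CPM. The groups were separate in both genotypes, with mouse 3 the highest of Con+Foxp2 and mouse 2 the highest of BACHD+Foxp2. The ratios were 2.08-fold (log2 fold change -1.06, SE 0.20) and 1.95-fold (-0.96, SE 0.20).

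Mtmr14, the phosphoinositide phosphatase, was at 38.4, 33.1, 31.8 and 34.2 CPM in Con+Con and at 12.6, 20.6, 17.6 and 21.8 CPM in Con+Foxp2. It was at 38.5, 59.1, 53.4 and 39.7 CPM in BACHD+Con and at 13.5, 22.9, 18.2 and 10.5 CPM in BACHD+Foxp2. All Foxp2-virus mice were below all control-virus mice, across the genotypes as well as within them. The level was 1.89-fold lower in control mice (log2 fold change -0.92, SE 0.24) and 2.92-fold lower in BACHD mice (-1.55, SE 0.24).

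Hook2, the dynein adaptor, showed the largest ratio between the viruses in BACHD mice and one of the smaller ones in control mice. Control mice had 22.1, 29.6, 32.8 and 23.8 CPM under the control virus and 22.2, 11.8, 16.2 and 22.7 CPM under the Foxp2 virus, where mice 1 and 4 were at the level of the lowest Con+Con mouse. It was at 28.9, 38.0, 45.7 and 38.2 CPM in BACHD+Con and 10.2, 14.4, 14.8 and 7.97 CPM in BACHD+Foxp2, with a wide gap between the groups. The control genotype thus gave overlapping groups and a log2 fold change of -0.57 (SE 0.25), 1.48-fold, and BACHD gave -1.67 (SE 0.26), 3.17-fold.

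Sidt2, the lysosomal membrane protein, had its Foxp2-virus libraries below all control-virus libraries in both genotypes. Its values were 80.3, 112, 76.2 and 88.9 CPM in Con+Con and 48, 56.9, 54.0 and 52.4 CPM in Con+Foxp2. In BACHD+Con they were 78.4, 86.5, 121 and 101 CPM and in BACHD+Foxp2 60.4, 52.4, 44.7 and 37.6 CPM. The Con+Foxp2 mice lay close together, with a mean of 52.8 ± 3.74 CPM. Sidt2 was 1.69-fold lower in control mice (log2 fold change -0.76, SE 0.17) and 1.99-fold lower in BACHD mice (-0.99, SE 0.17).

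Vars2, the mitochondrial valyl-tRNA synthetase, separated the viruses in BACHD mice but not in control mice. In Con+Con it was at 31.0, 32.5, 35.4 and 28.6 CPM and in Con+Foxp2 at 21.3, 13.4, 22.5 and 31.4 CPM, where mouse 4 lay among the Con+Con mice and mouse 2 was far below them. BACHD+Con mice had 37.8, 50.5, 47.4 and 46.3 CPM and BACHD+Foxp2 mice 24.5, 18, 21.3 and 18.8 CPM. The ratio was 1.43-fold in control mice (log2 fold change -0.52, SE 0.22) and 2.20-fold in BACHD mice (-1.14, SE 0.22). Without Con+Foxp2 mouse 2 the value in control mice was -0.34.

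Evl, the Ena/VASP actin regulator, showed the smallest ratio in control mice. Its level was 136, 171, 134 and 171 CPM in Con+Con and 96.9, 106, 119 and 115 CPM in Con+Foxp2, separate groups with a narrow gap. BACHD+Con had 182, 230.2, 219.9 and 176 CPM and BACHD+Foxp2 had 95.5, 128, 124 and 126 CPM, further apart. Evl was 1.40-fold lower in control mice (log2 fold change -0.49, SE 0.13) and 1.70-fold lower in BACHD mice (-0.77, SE 0.13).

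Inf2, the formin, was the gene with the least difference in BACHD mice. It was at 504, 795, 532 and 853 CPM in Con+Con, where the mice fell into a lower pair and a higher pair, and at 385, 347, 337 and 353 CPM in Con+Foxp2. In BACHD+Con it was at 557, 667, 707 and 517 CPM and in BACHD+Foxp2 at 429.8, 332, 512 and 530.1 CPM. The groups were separate in control mice and overlapped in BACHD mice, where BACHD+Foxp2 mouse 4 was above BACHD+Con mouse 4. The ratio was 1.89-fold in control mice (log2 fold change -0.92, SE 0.16) and 1.36-fold in BACHD mice (-0.44, SE 0.16).

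In control mice 4 of the 9 genes (Dnttip1, Parn, Map2k5 and Inf2) passed the threshold of an adjusted p under 0.05 by edgeR as lower, where 0.0885% of tested genes did (0.229% in either direction). In BACHD mice 7 of the 9 did (Dnttip1, Map2k5, Mtmr14, Hook2, Vars2, Evl and Sidt2), where 0.155% of tested genes did (0.243% in either direction). Groups without overlap, all Foxp2-virus libraries below all control-virus libraries, were seen for 7 of the 9 genes in control mice against 2.29% of tested genes, and for 8 of the 9 in BACHD mice against 2.36%. Since these contrasts chose the genes, nothing is read from the shares. DESeq2 put 6 of the 9 past the threshold in control mice, adding Mtmr14 and Sidt2, and the same 7 in BACHD mice. The median log2 fold change of the 9 was -0.92 in control mice (-1.36 to -0.49) and -0.99 in BACHD mice (-1.67 to -0.44), and the median over all tested genes was near 0 in both (-0.00366 and 0.000816). The count past the threshold depended on single mice. In control mice only Parn remained past it when mouse 2 of Con+Con or of Con+Foxp2 was left out, and Map2k5 and Parn when mouse 3 of Con+Foxp2 was. In BACHD mice 3 genes (Dnttip1, Hook2 and Mtmr14) were past it without BACHD+Con mouse 3, and 4 (Dnttip1, Evl, Hook2 and Mtmr14) without BACHD+Foxp2 mouse 4. With the 3 cortex-poor libraries named above left out, 2 of them from BACHD+Con, 2 genes in control mice (Inf2 and Parn) and 0 in BACHD mice were past the threshold, and all 9 log2 fold changes were still negative in both genotypes. In that fit every value in BACHD mice was smaller in size than with all 16 libraries. Dnttip1 was at -1.61, Hook2 at -1.5 and Vars2 at -1.03. Mtmr14 moved from -1.55 to -1.26 and Evl from -0.77 to -0.59, and Inf2 was at -0.25. In control mice Vars2 was at -0.34. In the authors' deposited table of Con+Foxp2 against Con+Con all 9 were lower, at log2 values of -0.957 to -0.364 with 6 under an adjusted p of 0.05. The authors' deposited table of BACHD+Foxp2 against BACHD+Con also had all 9 lower, at -1.19 to -0.382 with 7 under 0.05. Each of the authors' values between the viruses was smaller in size than the edgeR value here. They come from the same mice by another method, so the sizes are not compared.

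**Figure D2:**
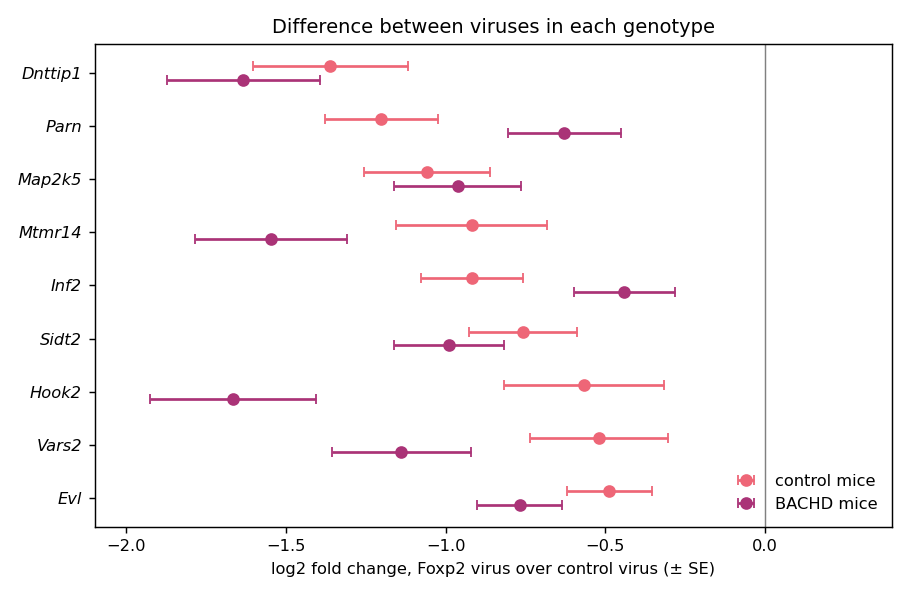
Log2 fold change of the Foxp2 virus over the control virus for each of the 9 genes (points) with its SE (bars), in control mice and in BACHD mice. All 18 values are below 0, with Hook2 and Mtmr14 further from 0 in BACHD mice and Parn and Inf2 further from 0 in control mice.

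The 9 genes did not share one order of the genotypes. For 6 of them (Dnttip1, Mtmr14, Hook2, Vars2, Evl and Sidt2) the log2 fold change was more negative in BACHD mice, and for Parn, Map2k5 and Inf2 it was more negative in control mice. The difference of the log2 fold changes, BACHD minus control, was -1.10 (SE 0.36) for Hook2, -0.63 (SE 0.33) for Mtmr14 and -0.62 (SE 0.30) for Vars2. It was 0.57 (SE 0.25) for Parn and 0.48 (SE 0.22) for Inf2, the opposite sign. For Dnttip1, Map2k5, Evl and Sidt2 it lay between -0.28 and 0.10, with SEs of 0.19 to 0.34. Both terms of these differences chose the genes, so no p is given for a single gene. The edgeR test of this difference over all 13563 genes called 0% of them, the 9 included, and 3.8% (516 genes) had an unadjusted p under 0.05. The less negative values of Parn and Inf2 in BACHD mice stood beside a lower Foxp2 level in BACHD+Foxp2, and so did the more negative values of Hook2, Mtmr14 and Vars2. The part of the Foxp2 level in either was not tested.

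The genotype contrasts did not choose the genes, but they use the same libraries, and a gene high by chance in BACHD+Con is more likely to be selected as lower with the virus there. Under the control virus 0 of the 9 genes passed the test between BACHD and control mice (edgeR quasi-likelihood test, adjusted p = 1 for each), where 0.0147% of tested genes were called. At an unadjusted p under 0.05 there were 4 of the 9 by edgeR, all higher in BACHD, where 3.44% of tested genes passed, and DESeq2 called 0. The 4 were Evl (log2 fold change 0.40, 95% interval 0.13 to 0.67), Dnttip1 (0.56, 0.08 to 1.03), Vars2 (0.51, 0.08 to 0.95) and Mtmr14 (0.47, 0.00153 to 0.94). Dnttip1 had 51.1 ± 18.1 CPM in Con+Con and 75.1 ± 2.8 CPM in BACHD+Con. The highest Con+Con mouse was at 73.4 CPM and the lowest BACHD+Con mouse at 73.5 CPM. The 4 log2 fold changes rest on few mice: Dnttip1 was at 0.36 without Con+Con mouse 3. Without the 3 cortex-poor libraries Mtmr14 was at 0.185, Evl at 0.225 and Vars2 at 0.397. Hook2 was also higher in the mean (0.48, -0.03 to 0.98; 0.305 without the 3 libraries), with overlapping groups. Parn (-0.11, -0.47 to 0.25), Map2k5 (-0.03, -0.43 to 0.37), Sidt2 (0.12, -0.23 to 0.46) and Inf2 (-0.13, -0.46 to 0.20) had intervals that extend to either side of 0. The authors' deposited table of BACHD+Con against Con+Con gave an adjusted p of 1 for all 9.

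Under the Foxp2 virus 0 of the 9 genes passed the test between the genotypes (edgeR, adjusted p = 0.998 for each), where 0.059% of tested genes were called. By edgeR 3 of the 9 had an unadjusted p under 0.05, where 4.18% of tested genes did, and DESeq2 called 0. Parn (log2 fold change 0.46, 95% interval 0.09 to 0.84) and Inf2 (0.34, 0.01 to 0.68) were higher in BACHD+Foxp2, and Hook2 was lower (-0.62, -1.17 to -0.08). All 3 had overlapping groups. The Foxp2-virus libraries also took part in the selection, and a gene low by chance in either group is more likely to be selected there. Nothing is therefore read from the share of 3 of 9. The other 6 lay between -0.16 (Mtmr14) and 0.28 (Dnttip1), each with an interval on both sides of 0. Across the 9 genes the median difference between genotypes was 0.40 under the control virus and 0.07 under the Foxp2 virus. The medians over all tested genes were 0.000536 and 0.00914. Of the 9 genes 7 were called lower with the Foxp2 virus in BACHD mice and 4 in control mice. Selection in BACHD mice favours genes high by chance in BACHD+Con or low by chance in BACHD+Foxp2. Such a selection can by itself put the median under the control virus above that under the Foxp2 virus. Nothing is therefore read from these medians.

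**Figure D3:**
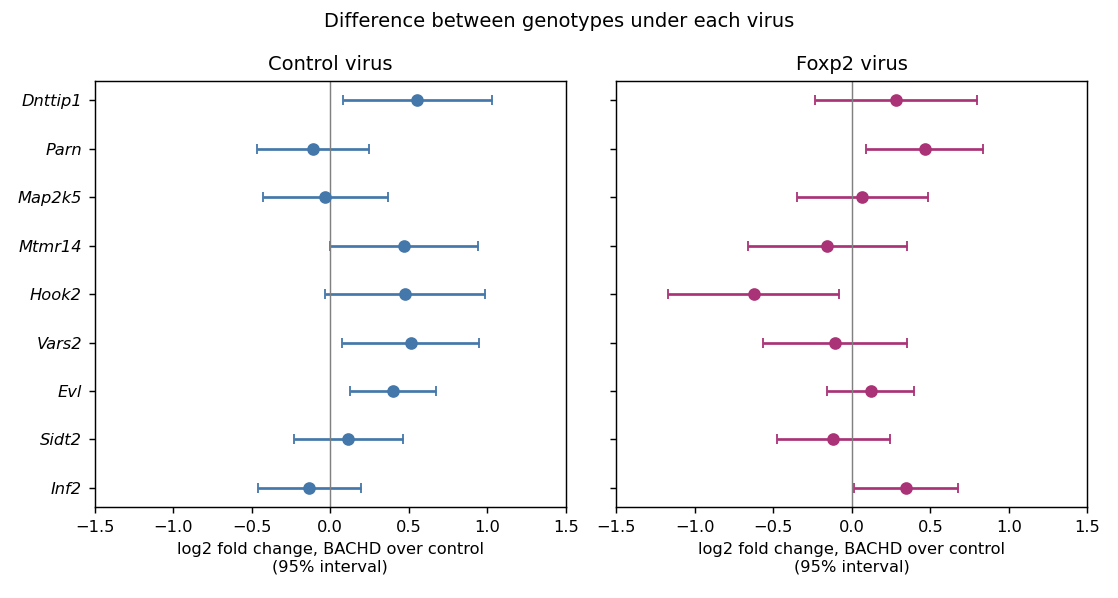
Log2 fold change of BACHD over control mice for each of the 9 genes (points) with its 95% interval (bars), under the control virus (left) and under the Foxp2 virus (right). Under the control virus 6 of 9 points are above 0, and under the Foxp2 virus 5 of 9 are.

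Markers of cell types moved beside these genes. All 13 projection neuron markers had a lower mean in Con+Foxp2 than in Con+Con (median log2 fold change -0.44) and 12 of 13 in BACHD+Foxp2 than in BACHD+Con (-0.23), with 0 called. Their summed level was 3960 to 7830 CPM in Con+Con, 4040 to 4940 in Con+Foxp2, 4560 to 7210 in BACHD+Con and 4310 to 5850 in BACHD+Foxp2. In control mice the highest Inf2 levels came with the highest sums: the 2 Con+Con mice with the highest Inf2, mice 2 and 4, had sums of 7830 and 7720 CPM, and the other 2 had 4430 and 3960. Dnttip1 followed the sum in Con+Con as well, from 29.6 CPM in the mouse with the lowest sum to 73.4 CPM in the one with the highest. Parn (66.5 to 102 CPM), Evl (134 to 171 CPM) and Sidt2 (76.2 to 112 CPM) also rose in the order of the Con+Con sums. Map2k5, Mtmr14, Hook2 and Vars2 did not. In BACHD+Con the sums ranged from 4560 to 7210 CPM. Inf2 rose in the order of the BACHD+Con sums, from 517 to 707 CPM, while Dnttip1 lay between 73.5 and 79.3 CPM. With the projection neuron sum as a covariate, chosen after the data were seen, the log2 fold change of Inf2 was -0.65 in control mice and -0.29 in BACHD mice. That of Dnttip1 was -1.12 and -1.51, that of Hook2 -0.59 and -1.68, and the counts past the threshold were again 4 and 7. The sum was itself lower in the mean with the Foxp2 virus, 5980 against 4580 CPM in control mice and 5700 against 4900 CPM in BACHD mice. This fit therefore cannot separate the content of projection neurons from the virus, and their part in the lower levels was not tested.

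**Figure D4:**
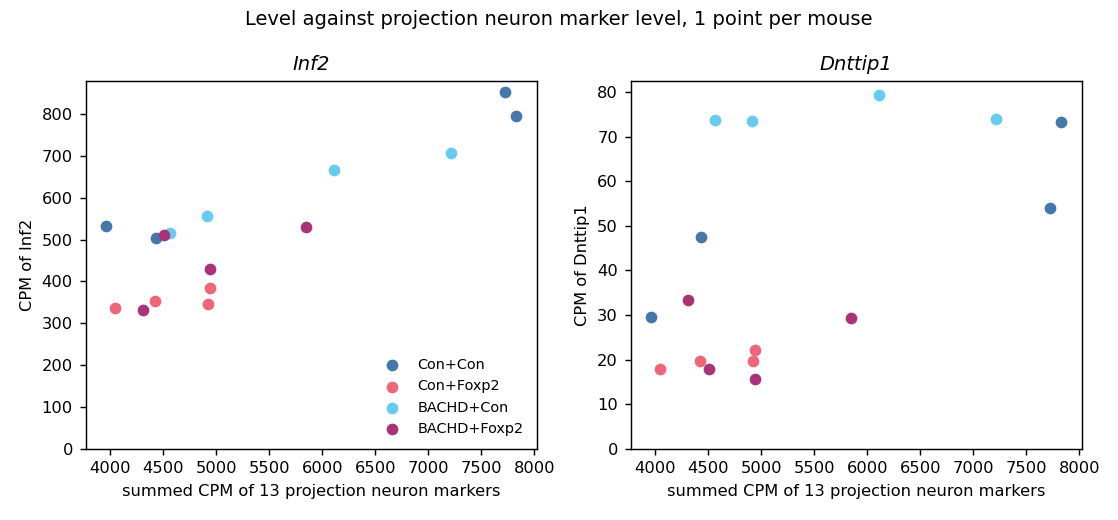
CPM of Inf2 (left) and Dnttip1 (right) against the summed CPM of 13 projection neuron markers, 1 point per mouse, coloured by group. In Con+Con both genes are higher in the 2 mice with the highest marker sums (7830 and 7720 CPM). In BACHD+Con Inf2 rises in the order of the sums, from 517 to 707 CPM over sums of 4560 to 7210 CPM. Dnttip1 spans 73.5 to 79.3 CPM there.

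The summed level of 12 interneuron markers was 437 to 524 CPM in Con+Con and 285 to 366 in Con+Foxp2, and 446 to 484 in BACHD+Con and 324 to 432 in BACHD+Foxp2, without overlap in either genotype. With the Foxp2 virus 11 of these 12 markers had a lower mean in control mice and all 12 in BACHD mice, and Chat, the acetylcholine-synthesising enzyme, was called in BACHD mice (log2 fold change -2.13, edgeR adjusted p = 0.00845). Microglial markers summed to 213 to 264 CPM in Con+Con and 260 to 334 in Con+Foxp2, and to 195 to 236 in BACHD+Con and 274 to 319 in BACHD+Foxp2. Ctss, a lysosomal protease of microglia, was called higher in BACHD mice (0.77, adjusted p = 0.0465), as was the astrocyte filament gene Gfap (1.27, adjusted p = 0.00326). The sum of the 9 astrocyte markers was 6690 to 7220 CPM in BACHD+Con and 7130 to 8350 in BACHD+Foxp2. In control mice it was 7100 to 8690 CPM in Con+Con and 7960 to 8430 in Con+Foxp2, and the sums overlapped in both genotypes. Oligodendrocyte markers summed to 5960 to 9260 and 4090 to 6430 CPM in the control genotype, and to 5010 to 6840 and 2860 to 7980 CPM in BACHD. Sums for oligodendrocyte precursors (172 to 276 CPM) and for endothelial and mural cells (196 to 277 CPM) overlapped between the viruses in both genotypes. No marker of any list was at 0 throughout a group. The part of interneurons, microglia and astrocytes in the lower levels of the 9 genes was not tested.

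The closest relatives and partners of the 9 proteins gave few calls. Over 9 lists, 152 partner genes were tested, and 0 were called in control mice, where 1 was higher and 5 were lower at an unadjusted p under 0.05 by edgeR and DESeq2 called 1, Tpcn1. In BACHD mice 1 was called by edgeR, Tpcn1, and 2 by DESeq2, Tpcn1 and Nars2. The median log2 fold change of the 152 was -0.06 in control mice and 0.02 in BACHD mice. Tpcn1, a two-pore channel of the lysosomal membrane that stood in the list for Sidt2, went from 88.4 ± 7.76 to 54.6 ± 10.7 CPM in control mice (log2 fold change -0.70, edgeR adjusted p = 0.0615). In BACHD it moved from 101 ± 12.1 to 54.7 ± 8.38 CPM (-0.88, adjusted p = 0.00845), with separate groups in both genotypes. That call in BACHD mice was lost when the 3 cortex-poor libraries were left out, and when the 4 libraries whose tables have carriage returns were. Of the 18 tested genes in the lysosomal list, 12 had a lower mean in control mice and 5 in BACHD mice. Sidt1, the paralog of Sidt2, was at 21.6 ± 22.1 and 25.5 ± 10.7 CPM in control mice and at 18.8 ± 16.5 and 24.8 ± 8.83 CPM in BACHD mice.

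Beside Dnttip1, the deacetylase Hdac2 was at 79.8 ± 18.9 and 81.7 ± 5.75 CPM in control mice, and at 88.6 ± 7.27 and 88.1 ± 10.3 CPM in the BACHD groups. Hdac1 had at most 14 reads in a library and was not tested. Beside Parn, the deadenylase subunit Pan2 went from 42.2 ± 13.8 to 27.5 ± 7.58 CPM in control mice (log2 fold change -0.62, adjusted p = 0.583) and from 28.9 ± 4.36 to 24.7 ± 5.74 CPM in BACHD mice, with overlapping groups. The median over the 21 tested deadenylation genes was -0.04 in control mice and -0.09 in BACHD mice. Mapk7 (ERK5), the substrate of Map2k5, was at 20 ± 4.12 and 18.9 ± 3.09 CPM in control mice and at 18.7 ± 2.89 and 20.9 ± 5 CPM in BACHD mice. Mtmr2, a myotubularin like Mtmr14, was at 45.9 ± 8.50 and 38.6 ± 5.46 CPM in control mice and at 37.7 ± 5.80 and 43.8 ± 8.52 CPM in BACHD mice. None of Hdac2, Pan2, Mapk7 and Mtmr2 passed the test in either genotype.

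The paralogs of Hook2 were near the same level under both viruses, Hook1 at 84.5 ± 15.9 and 80.6 ± 2.71 CPM and Hook3 at 246 ± 12.7 and 232 ± 9.76 CPM in control mice. In BACHD mice Hook1 was at 79.8 ± 9.88 and 74.9 ± 9.15 CPM and Hook3 at 214 ± 30.4 and 222 ± 25.0 CPM. Vars, the cytosolic valyl-tRNA synthetase, was at 50.9 ± 6.02 and 47.6 ± 2.78 CPM in control mice. It was at 69 ± 6.56 CPM in BACHD+Con and 49.4 ± 8.37 CPM in BACHD+Foxp2, with separate groups (log2 fold change -0.48, adjusted p = 0.353). The 22 tested genes of the mitochondrial synthetase list, which includes Vars, had a median of -0.21 in control mice and -0.10 in BACHD mice. By edgeR 0 of them were called, and Nars2, which DESeq2 called lower in BACHD mice, belongs to this list (log2 fold change -1.22, edgeR adjusted p = 0.119). Enah and Vasp, the other Ena/VASP proteins beside Evl, were at 282 ± 47.3 and 279 ± 37.8 CPM and at 13.3 ± 4.16 and 11.8 ± 3.32 CPM in control mice. In BACHD mice Enah was at 263 ± 14.1 and 250.1 ± 12.2 CPM and Vasp at 13.5 ± 5.90 and 15 ± 7.72 CPM. The formin Diaph1, listed under its older symbol Diap1, was at 133 ± 29.3 and 121 ± 12.5 CPM in control mice and at 128 ± 15.5 and 113 ± 16.8 CPM in BACHD mice. Whether the virus difference of Hook2, Evl or Inf2 differs from that of its relatives was not tested, since the former chose the genes.

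The lists of Dnttip1, Map2k5, Mtmr14, Hook2, Evl and Inf2 partners each had 0 called genes in both genotypes. Their medians were -0.01 and -0.09 over 3 MiDAC genes, 0.00386 and 0.11 over 15 genes of the MEK5 cascade, and -0.05 and 0.05 over 23 phosphoinositide genes. They were -0.06 and 0.03 over 20 dynein adaptor genes, -0.02 and -0.04 over 12 Ena/VASP genes, and -0.03 and 0.07 over 18 formin genes, in control and BACHD mice respectively.

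The genes next to the 9 on the chromosome were measured as well. Taking the nearest tested gene on each side and any tested gene that overlaps, 20 neighbours were found: Pigt, Snx21, Ercc4, Bfar, Pias1, 2300009A05Rik, Lhfpl4, Cpne9, Junb, Asna1, Cchcr1, Gtf2h4, Gm16596, Degs2, Eml1, Yy1, Tagln, Pafah1b2, Tmem179 and Adssl1. By edgeR 0 of the 20 were called and 0 had an unadjusted p under 0.05 in either genotype, and DESeq2 called 0. The median was 0.05 in control mice (-0.58 to 0.86) and 0.05 in BACHD mice (-0.30 to 0.41). Bfar, 3688 bases from Parn, was at 47.0 ± 8.19 and 51.5 ± 10.3 CPM in control mice and at 50.7 ± 5.78 and 44.1 ± 8.34 CPM in BACHD mice. Junb, 11885 bases from Hook2, was at 43.8 ± 12.3 and 44.5 ± 5.34 CPM and at 43.7 ± 5.96 and 36.7 ± 7.91 CPM. Degs2, which overlaps Evl, was at 6.75 ± 2.16 and 10.8 ± 1.11 CPM and at 7.36 ± 0.58 and 8.58 ± 3.43 CPM, higher in the mean under the Foxp2 virus where Evl was lower. Gtf2h4, 138 bases from Vars2, had only 8.31 ± 1.98 and 6.20 ± 3.04 CPM in control mice and 5.64 ± 3.00 and 5.81 ± 3.91 CPM in BACHD mice, so that a modest difference would not be detectable there.

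**Figure D5:**
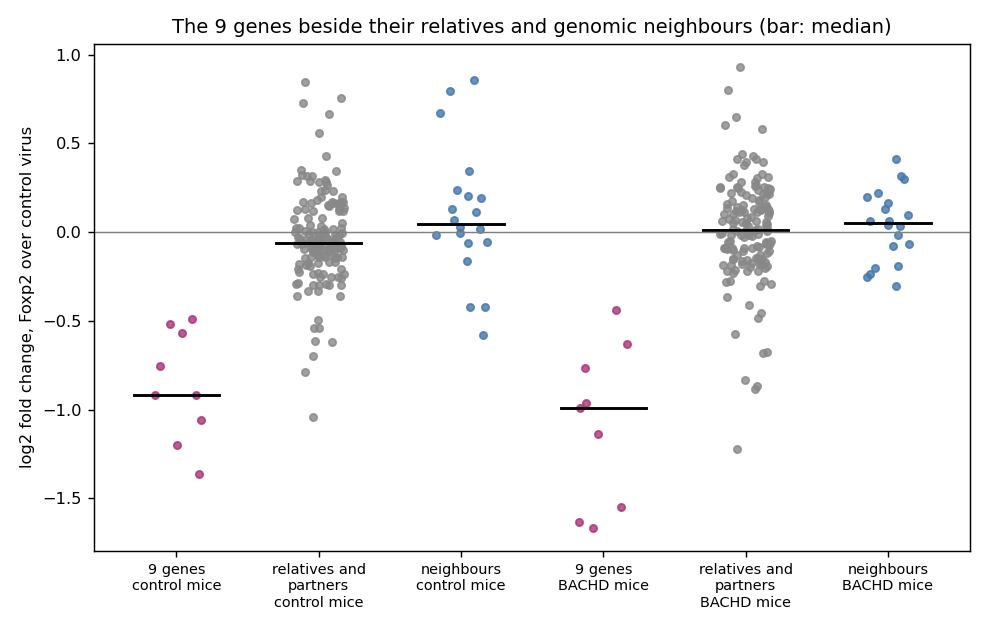
Log2 fold change of the Foxp2 virus over the control virus for the 9 genes, the 152 tested relatives and partners and the 20 neighbours (points, 1 per gene) with the median of each set (bar), in control mice (left) and BACHD mice (right). The medians of the 9 genes are -0.92 and -0.99, those of relatives -0.06 and 0.02, and those of neighbours 0.05 in both genotypes. The 9 genes were chosen on these values. The lists of relatives and partners were chosen with earlier results of these data known, and the neighbours were taken by position.

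Averaged over the 9 genes, log2 CPM centred on each gene's mean was 0.36 ± 0.19 in Con+Con (0.20 to 0.60), -0.50 ± 0.12 in Con+Foxp2, 0.61 ± 0.14 in BACHD+Con (0.49 to 0.77) and -0.47 ± 0.10 in BACHD+Foxp2 (SD over 4 mice). Sidt2 and Evl lay closest to this profile over the 16 libraries, with root mean square differences of 0.20 and 0.21 on the log2 scale, and Dnttip1 lay farthest, at 0.41, with the widest swing between groups. Among the other tested genes the 6 most alike were Pde2a (0.13), Dgki (0.20), Col4a2 (0.22), Mcf2l (0.23), Ppp1r12c (0.24) and Parp6 (0.24), by the same measure. Pde2a, a cyclic nucleotide phosphodiesterase, went from a mean of 761 to 413 CPM in control mice and from 889 to 435 CPM in BACHD mice. Dgki, a diacylglycerol kinase, went from 297 to 179 CPM and from 312 to 183 CPM. All of the 6 but Mcf2l were among the 26 genes called lower. The measure favours such genes, since its profile was built from genes selected as lower with the Foxp2 virus. Mcf2l was at 287 and 190.0 CPM in control mice and at 293 and 195 CPM in BACHD mice, with edgeR adjusted p-values of 0.0524 and 0.0575.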

How the data were processed

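RNA was extracted from striatum with a lipid tissue kit and made into SMARTer libraries for Illumina sequencing, per the labels' protocols. For each of 16 mice the authors deposited a table of read counts by gene symbol. Per the submitters' processing notes STAR 2.4.0, HTSeq, DESeq2 and mm10 were used. Neither annotation nor strand setting is stated there. The counts are whole numbers without normalization, and 5 closing lines of reads assigned to no gene were left out (gene reads were 22.5% to 24.7% of the listed reads). The authors' deposited comparison tables hold log2 fold changes with adjusted p-values, quoted only beside the values computed here. The labels state 4 mice per group, and all 120 library pairs differed by more than counting error.

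Counts were tested with edgeR 4.0.16 (R 4.3.3): trimmed mean of M values, filterByExpr (13563 genes), a quasi-likelihood fit of 16 libraries with 1 mean per group (12 residual degrees of freedom), two-sided tests, Benjamini-Hochberg adjustment over all tested genes and a threshold of 0.05. Log2 CPM used a prior count of 2. Alternatives were relative log expression or library-total scaling, no filter or a mean of 20 reads, DESeq2 1.42.0, voom (limma 3.58.1), the groups compared alone, a replicate block, each library left out, and 3 libraries low in cortical markers left out. Leaving out 4 libraries whose tables end lines with a carriage return, and a projection neuron covariate, were added after seeing the data. Sequences came from the RefSeq promoter table and coordinates from GENCODE M21. Fits were tested on simulated data.

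The 9 genes, the 9 partner lists and the 9 marker lists were chosen with earlier results of these data known. Named genes were the 9 genes, Foxp2, 12 direct relatives, partner genes called with the virus, all neighbours, and the 6 other genes with the smallest root mean square difference from the mean centred profile, predicted genes left out. The other genes called lower (1 of the 17 is not reported here), Gm11457, Gm20483, A830035O19Rik, Chat, Ctss, Gfap and Nars2 were named after their values were seen. Diaph1 was matched through a RefSeq synonym.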

Additional observations from a re-analysis of the deposited data

Results flagged for a closer look

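A single mouse stood apart from the other 3 of its group in 2 of 36 combinations of gene and group checked, by the ratio of the gap to the group's range set against Dixon's 95% critical value. Chance gives such a gap in about 1 in 20 groups. Dnttip1 was highest in BACHD+Con mouse 2 at 79.3 CPM, where the other mice lay between 73.5 and 73.9 CPM (ratio 0.941), a small distance in an otherwise tight group. Evl was lowest in BACHD+Foxp2 mouse 1 at 95.5 CPM, where the other mice lay between 124 and 128 CPM (ratio 0.875). Both values lay on the side away from the other virus group of BACHD mice, and so widened the difference between the viruses.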

How the results depend on the processing

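Over 27 alternatives, 16 of them leaving out 1 mouse, all 486 log2 fold changes of the 9 genes between the viruses stayed negative, and none moved by more than 1 SD between mice. Counts of the 9 genes past the threshold moved with the mice used, from 1 to 5 in control mice and from 3 to 7 in BACHD mice when 1 mouse was left out. In control mice the count was 6 with DESeq2 and 5 with no filter. Without the 3 libraries lowest in cortical markers the counts were 2 and 0, and without the 4 libraries with carriage returns 1 (Parn) and 1 (Dnttip1), where fewer mice were compared. Without the 3 libraries Inf2 was at -0.25 and Dnttip1 at -1.61 in BACHD mice. Partner genes called in control mice numbered 1 (Tpcn1) with no filter, with DESeq2, with voom and without the 3 libraries, and 0 to 1 when 1 mouse was left out, Con+Foxp2 mouse 2 and BACHD+Foxp2 mouse 3 each giving 1. In BACHD mice they numbered 2 with DESeq2, and 0 without the 3 libraries or without the 4 with carriage returns. Genotype and neighbour counts were 0 under every alternative. The cause of these changes was not tested. Of the genotype values, Mtmr14 under the Foxp2 virus was 0.0111 without the 4 libraries. When 1 mouse was left out, it ranged from -0.37 to 0.00438, Vars2 from -0.29 to 0.11 and Map2k5 from -0.0866 to 0.267 under the Foxp2 virus. Under the control virus Parn ranged from -0.20 to 0.00769, Map2k5 from -0.12 to 0.11 and Sidt2 from -0.0184 to 0.237. None of these was called.

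With the replicate number as a replicate block, the counts were 4 and 7 for the 9 genes, 0 and 1 for partner genes, and 0 for neighbours and for the genotype contrasts. Same-numbered mice did not deviate together (correlations of -0.17 to 0.10 over 16 pairs, 2 over 0.1). Whether the numbers mark a pairing that left no such trace cannot be told from these values. At 2660395 to 3669748 gene reads per library, Hook2 rested on 25 to 136 reads and its differences are the least precise, with SEs of 0.25 and 0.26 on the log2 scale.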
